A study of Mus musculus with 6 samples.

Results

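Hepatic genes of cholesterol synthesis, sterol sensing and sterol export were followed in mice that lack the cytochrome P450 gene Cyp2e1. The set holds 30 genes of the 15960 in the expression table, found by symbol: 8 of the mevalonate steps, 11 of the sterol steps, 4 of sterol sensing, 6 of sterol handling and export, and the retinal reductase gene Rdh11. All 30 were in the table and all passed the filter on low values (at least 1 FPKM in at least 3 of 6 samples), as did 9968 genes in all. FPKM counts sequenced fragments per kilobase of transcript, relative to the size of the library.

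Liver RNA came from 3 Cyp2e1-/- and 3 Cyp2e1+/+ mice. Both genotypes were C57BL/6, aged 22 weeks, and had been fed a high-fat diet for 14 weeks, so that no sample here stands for a normal diet. The samples carry a replicate number from 1 to 3 in each genotype; the labels do not say what that number stands for, how the allele was made or which sex the mice were. The p-values therefore measure the spread between these samples.

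Liver makes cholesterol from acetyl-CoA through mevalonate, farnesyl diphosphate and squalene, and most enzymes of the route are known targets of the transcription factor SREBP-2, the product of Srebf2. SREBP-2 is held in the endoplasmic reticulum by its escort SCAP and by the INSIG proteins while sterols are plentiful, and is released to the Golgi, cleaved and sent to the nucleus when they run low. Surplus sterol is esterified for storage or secreted into bile, and the export genes are known targets of LXR, a receptor for oxysterols.

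The targeted gene followed the labels. Cyp2e1 stood at 254, 247 and 271 FPKM in knockout replicates 1 to 3 and at 7427, 5942 and 6071 in the wild type ones (log2 difference -4.64, SE 0.14; limma, adjusted p = 6.7e-08). All 7 hepatocyte markers were detected, with sums of 42039 to 53244 FPKM per sample. Steps in low values put the libraries at about 8050000 to 10700000 fragments, with knockout replicate 1 the deepest. At that depth the members rested on about 20 fragments in the lowest sample of Mvd and on about 1143 in the lowest of Sc5d.

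In the comparison of genotypes, 1 of the 30 members passed the threshold, an adjusted p under 0.05 over all 9968 genes (limma on log2(FPKM + 1), Benjamini-Hochberg). It was Insig2, which rose to about double its wild type level in the knockout, while none of the 19 synthesis enzymes and none of the export genes passed. Over all tested genes 0.472% rose and 0.291% fell. The median log2 difference was -0.074 over the members and -0.028 over all tested genes, and 13 of 30 members had a positive difference, against 44.2% of all tested genes. At an unadjusted p under 0.05 there were 3 members, against 9.93% of all tested genes.

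Insig2 encodes an endoplasmic reticulum protein that binds SCAP and keeps SREBP precursors from leaving for the Golgi. It lies on chromosome 1, from 121304353 to 121332662 (GRCm38). The knockout samples held 69.60, 73.51 and 67.05 FPKM and the wild type samples 32.66, 35.69 and 34.78. The lowest knockout sample was far above the highest wild type sample, and neither group had a sample apart from the other 2. The means were 70.1 ± 3.25 and 34.4 ± 1.55 FPKM (SD, n = 3 each), a ratio of 2.04, and the log2 difference was 1.01 (SE 0.11; limma, adjusted p = 0.0026). Without replicate 1 of both genotypes it was 0.97 (SE 0.082; limma, adjusted p = 0.00019), and with the replicate number as a block the adjusted p was 0.018 (limma).

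In liver a transcript of Insig2 from its own start is known to be lowered by insulin. The table gives 1 value for the gene, listed with 4 RefSeq transcripts and 1 that the authors named as new, so that the starts cannot be told apart in it. RefSeq places 3 starts in the windows printed here, each from 250 bases before to 50 after the start, on the minus strand of GRCm38.p6 and read 5′ to 3′ along the gene. They are shown because the doubled value does not separate them. Capitals mark the CCAAT box, the site of NF-Y, a factor that SREBP proteins are known to work with, on either strand (CCAAT or ATTGG). No match of the sterol regulatory element core searched for below is in any of the 3.
Insig2, chr1:121332540-121332839: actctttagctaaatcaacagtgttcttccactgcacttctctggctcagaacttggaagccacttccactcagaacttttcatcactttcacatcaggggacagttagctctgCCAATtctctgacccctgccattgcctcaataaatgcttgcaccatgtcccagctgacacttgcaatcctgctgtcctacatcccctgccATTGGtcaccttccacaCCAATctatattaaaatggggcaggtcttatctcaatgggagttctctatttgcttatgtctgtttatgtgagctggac
Insig2, chr1:121327975-121328274: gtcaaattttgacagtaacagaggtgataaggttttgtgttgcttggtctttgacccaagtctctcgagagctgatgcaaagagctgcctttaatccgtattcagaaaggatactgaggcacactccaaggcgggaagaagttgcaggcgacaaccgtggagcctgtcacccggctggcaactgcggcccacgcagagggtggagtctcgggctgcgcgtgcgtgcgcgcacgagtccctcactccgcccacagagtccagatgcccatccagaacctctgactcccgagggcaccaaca
Insig2, chr1:121327629-121327928: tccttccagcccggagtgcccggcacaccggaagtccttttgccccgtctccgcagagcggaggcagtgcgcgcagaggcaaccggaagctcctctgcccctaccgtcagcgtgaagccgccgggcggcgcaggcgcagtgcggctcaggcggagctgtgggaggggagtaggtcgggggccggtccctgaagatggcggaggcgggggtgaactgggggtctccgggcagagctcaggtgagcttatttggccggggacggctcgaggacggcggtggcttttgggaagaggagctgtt
The first window holds 3 CCAAT boxes and the other 2 hold none.

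The other sensing genes did not pass. Insig1, which has the same role as Insig2 and is itself a target of SREBP, stood at 31.86, 35.62 and 31.59 FPKM in knockout samples and 29.44, 29.07 and 31.58 in wild type samples (log2 difference 0.13, SE 0.12; limma, adjusted p = 0.79). The groups touched without overlapping, since the highest wild type sample lay just under the lowest knockout sample. Insig1 sits inside an annotated noncoding gene, Gm35223, and no label or header says whether reads were counted by strand.

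Srebf2, the gene of SREBP-2 itself, stood at 10.22, 12.58 and 12.08 FPKM in knockout samples and 9.72, 8.27 and 7.91 in wild type samples. Every knockout sample was above every wild type sample, by a narrow margin between the 2 replicates numbered 1. The log2 difference was 0.39 (SE 0.14; limma, adjusted p = 0.37), and in replicates 2 and 3 alone 0.55 (SE 0.11; limma, adjusted p = 0.016). Scap, the escort, stood at 23.30, 26.29 and 29.03 FPKM in knockout samples and 21.84, 25.49 and 21.34 in wild type samples, which overlapped (log2 difference 0.19, SE 0.13; limma, adjusted p = 0.71).

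**Figure D1:**
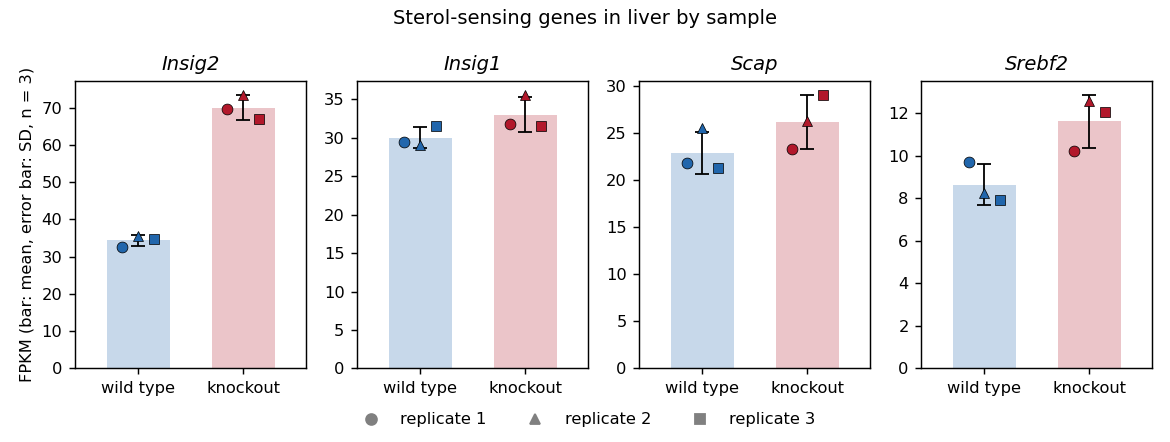
FPKM of Insig2, Insig1, Scap and Srebf2 in each sample, by genotype; bars are means, error bars SD (n = 3), marker shapes the replicate number, and each panel has its own axis from 0. The knockout samples of Insig2 lie between 67.05 and 73.51 FPKM and the wild type samples between 32.66 and 35.69.

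In 3 of 30 members every knockout sample lay above every wild type sample (Insig2, Insig1 and Srebf2), which also held for 5.32% of all tested genes. In 1 member, the sterol desaturase gene Sc5d, every knockout sample lay below every wild type sample, which held for 10% of all tested genes. Sc5d stood at 43.88, 32.10 and 28.91 FPKM in knockout samples and 46.68, 45.66 and 44.66 in wild type samples. Knockout replicate 1 lay just under the wild type range and the other 2 knockout samples well under it (log2 difference -0.40, SE 0.16; limma, adjusted p = 0.42). Without knockout replicate 1 the difference passed (-0.57; limma, adjusted p = 0.045).

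Lists of markers of other liver cells differed between the genotypes in part, and their part in these differences was not tested. Summed over 8 markers of Kupffer cells and macrophages, levels were 66.61 to 128.42 FPKM in knockout samples and 123.66 to 140.31 in wild type samples, overlapping through knockout replicate 1. Over 6 cholangiocyte markers they were 18.89 to 21.72 and 25.35 to 32.36 FPKM, and over 7 stellate cell markers 81.95 to 86.59 and 90.39 to 104.93, without overlap. None of the tested genes of these 3 lists passed between genotypes, 1 of 3 tested red blood cell markers did, and no marker in the table was at 0 in all samples. In whole liver, fewer cells of a type and less RNA per cell cannot be told apart.

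Replicate 1 of both genotypes stood apart from replicates 2 and 3 in the synthesis enzymes. Compared over both genotypes, with genotype in the model, 8 of 30 members were higher in replicate 1 and 2 were lower (limma, adjusted p under 0.05). Over all 9968 tested genes 0.742% were higher and 3.75% were lower, so that the direction of the members was the less common one. The 8 were all enzymes, 3 of the mevalonate steps (Fdps, Idi1, Mvk) and 5 of the sterol steps (Nsdhl, Sqle, Msmo1, Cyp51, Tm7sf2). The 2 lower ones, Stard4 and Npc1, move sterols between membranes. The median log2 difference was 0.23 over the members and -0.084 over all tested genes.

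Summed over the 8 mevalonate-step genes, FPKM was 187.46, 86.93 and 81.98 in knockout replicates 1 to 3 and 204.94, 118.01 and 118.45 in the wild type ones. Over the 11 sterol-step genes it was 357.83, 245.21 and 239.93 in knockout samples and 362.87, 260.95 and 249.79 in wild type samples. Both replicate 1 samples were above the 4 others in each sum, 1.94-fold for the mevalonate steps and 1.45-fold for the sterol steps on average.

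Fdps makes farnesyl diphosphate, the last intermediate that the sterol and the prenyl branches share (chromosome 3, 89093588 to 89101967). It stood at 94.77, 31.35 and 28.14 FPKM in knockout replicates 1 to 3 and at 110.01, 57.06 and 50.24 in the wild type ones. Replicate 1 was 3.19 times the mean of replicates 2 and 3 in the knockout and 2.05 times in wild type, and no other sample came near these 2. The log2 difference was 1.33 (SE 0.15; limma, adjusted p = 0.0088).

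Idi1, the isomerase that readies the isoprene units for Fdps (chromosome 13, 8885606 to 8892396), held 30.46, 7.17 and 7.61 FPKM in knockout samples and 30.49, 16.99 and 20.38 in wild type samples. The replicate 1 samples of the 2 genotypes were level, and the others were not, with the knockout below the wild type (log2 difference of replicate 1 1.30, SE 0.25; limma, adjusted p = 0.036). Mvk, mevalonate kinase, held 7.55, 5.0 and 4.97 FPKM in knockout samples and 9.08, 4.71 and 5.31 in wild type samples, again with both replicate 1 samples on top (log2 difference 0.63, SE 0.12; limma, adjusted p = 0.035).

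Of the other mevalonate genes, 3 had both replicate 1 samples above the other 4 without passing. They were Acat2, the thiolase of the first step, Hmgcs1, which makes HMG-CoA, and Pmvk, the second kinase, with log2 differences of 0.37, 0.42 and 0.43 (limma, adjusted p = 0.11, 0.084 and 0.089). Hmgcs1 held 17.11, 11.63 and 10.60 FPKM in knockout samples and 12.46, 10.01 and 10.56 in wild type samples. Acat2 held 21.48, 19.88 and 16.48 and 27.61, 18.73 and 19.53 FPKM; it has a close relative in Acat3, so its reads may have been divided. Pmvk held 12.31, 8.38 and 9.98 FPKM in knockout samples and 11.88, 7.63 and 9.13 in wild type samples.

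The decarboxylase gene Mvd was low throughout, at 1.82, 1.39 and 1.84 FPKM in knockout samples and 2.27, 1.32 and 1.31 in wild type samples (log2 difference 0.31; limma, adjusted p = 0.25). Ggps1, which takes farnesyl diphosphate into the geranylgeranyl branch and away from sterols, was the one mevalonate-step gene with a negative difference (-0.25; limma, adjusted p = 0.30). It held 1.96, 2.13 and 2.36 FPKM in knockout samples and 1.14, 1.56 and 1.99 in wild type samples.

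Among the sterol steps Nsdhl, a dehydrogenase that removes methyl groups from the ring (chromosome X, 72918521 to 72958528), held 22.71, 5.63 and 5.10 FPKM in knockout samples and 21.99, 10.98 and 9.79 in wild type samples. As for Idi1, the replicate 1 samples were nearly level between genotypes and the rest lay lower in the knockout (log2 difference of replicate 1 1.46, SE 0.19; limma, adjusted p = 0.015). Sqle, squalene epoxidase, a rate-limiting enzyme of the sterol branch, held 13.15, 4.22 and 4.39 FPKM in knockout samples and 10.60, 6.44 and 6.30 in wild type samples (log2 difference 1.04, SE 0.17; limma, adjusted p = 0.027). Its replicate 1 sample was 3.05 times the other knockout samples and 1.66 times the other wild type samples.

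Msmo1, the sterol methyl oxidase that acts before Nsdhl, held 70.33, 36.12 and 31.24 FPKM in knockout samples and 67.14, 33.51 and 41.07 in wild type samples (log2 difference 0.94, SE 0.12; limma, adjusted p = 0.014). Cyp51, the lanosterol demethylase, held 12.32, 6.84 and 6.02 FPKM in knockout samples and 13.22, 8.90 and 8.53 in wild type samples (log2 difference 0.70, SE 0.12; limma, adjusted p = 0.028). In both genes the 2 replicate 1 samples were alike and the 4 others formed a lower group. Tm7sf2, the sterol reductase that follows Cyp51, held 57.66, 44.53 and 40.65 FPKM in knockout samples and 64.63, 30.48 and 32.50 in wild type samples (log2 difference 0.72, SE 0.14; limma, adjusted p = 0.037), with the wider gap in wild type.

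Dhcr7, the reductase that turns 7-dehydrocholesterol into cholesterol, held 26.17, 12.81 and 12.81 FPKM in knockout samples and 21.78, 19.09 and 14.44 in wild type samples and did not pass over both genotypes (log2 difference 0.67; limma, adjusted p = 0.064). Its replicate 1 difference was 0.98 within the knockout and 0.37 within wild type, each 1 sample against 2. The squalene synthase gene Fdft1 and the cyclase gene Lss had log2 differences of 0.23 and 0.22 (limma, adjusted p = 0.21 and 0.27), and ranges of 16.21 to 21.10 and 2.75 to 3.95 FPKM over all samples. Both overlap other annotated genes, Fdft1 with the end of Ctsb and Lss with 4930483K19Rik.

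The 3 remaining sterol-step genes did not pass. Ebp, a sterol isomerase and the most abundant enzyme of the set, held 79.64, 74.75 and 81.80 FPKM in knockout samples and 86.31, 74.75 and 64.03 in wild type samples (log2 difference 0.17; limma, adjusted p = 0.40). Sc5d had a difference of 0.28 (limma, adjusted p = 0.22). Hsd17b7, a keto-reductase, was the sterol-step gene with a negative difference (-0.28; limma, adjusted p = 0.17), with 7.60, 9.25 and 9.33 FPKM in knockout samples and 6.74, 9.24 and 7.95 in wild type samples.

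**Figure D2:**
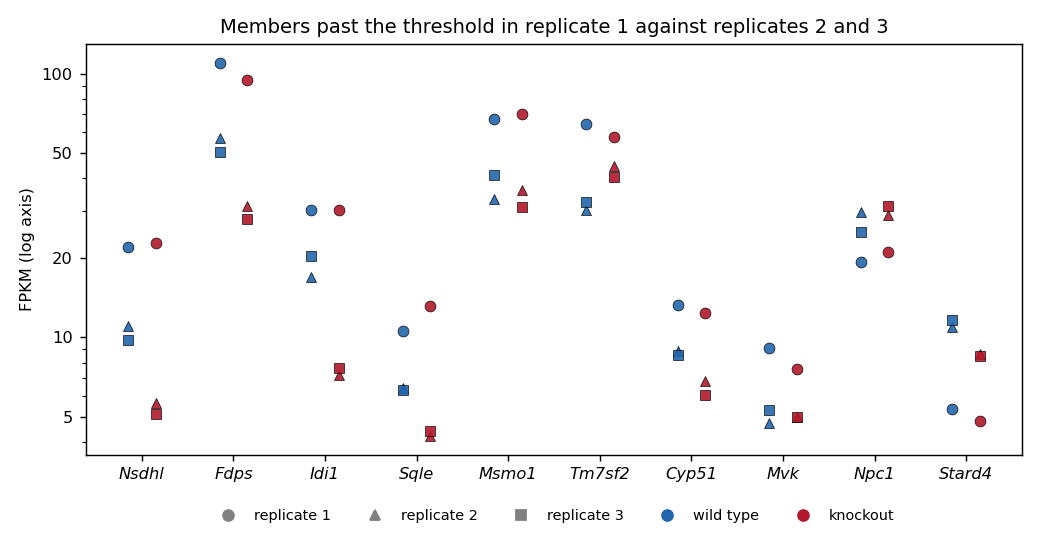
FPKM on a log axis of the 10 members that passed between replicate 1 and replicates 2 and 3, by sample; colours give the genotype and marker shapes the replicate number. Circles, the replicate 1 samples, lie on top in the 8 enzymes and at the bottom in Npc1 and Stard4.

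In 14 of 30 members, all of them enzymes, both replicate 1 samples lay above the 4 others, which held for 6.46% of all tested genes. In 4 members they lay below, which held for 24.2%. None of the 4 sensing genes passed, and their log2 differences lay between -0.16 and -0.0051. The number of enzymes called changed with the samples used, as did the calls over all tested genes. Leaving out knockout replicate 2 left 1 of the 8 (Fdps), and 9 of all 9968 tested genes were then higher. Without knockout replicate 3 or wild type replicate 2 there were 2 (Fdps and Nsdhl), beside 10 and 7 of all tested genes. Without wild type replicate 3 there were 3 (Fdps, Msmo1 and Nsdhl), beside 9 of all tested genes. Within 1 genotype, with 1 sample against 2 and the lone sample assumed to vary like the others, the knockout gave 7 higher members and 1 lower (1.33% and 3.71% of all tested genes), and the wild type 8 and 1 (4.44% and 3.51%). Without the filter on low values, which adds genes to the fit and to the adjustment, none of the 30 passed (limma). With the filter 16 members had an unadjusted p under 0.05, as did 25.2% of all tested genes (limma).

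**Figure D3:**
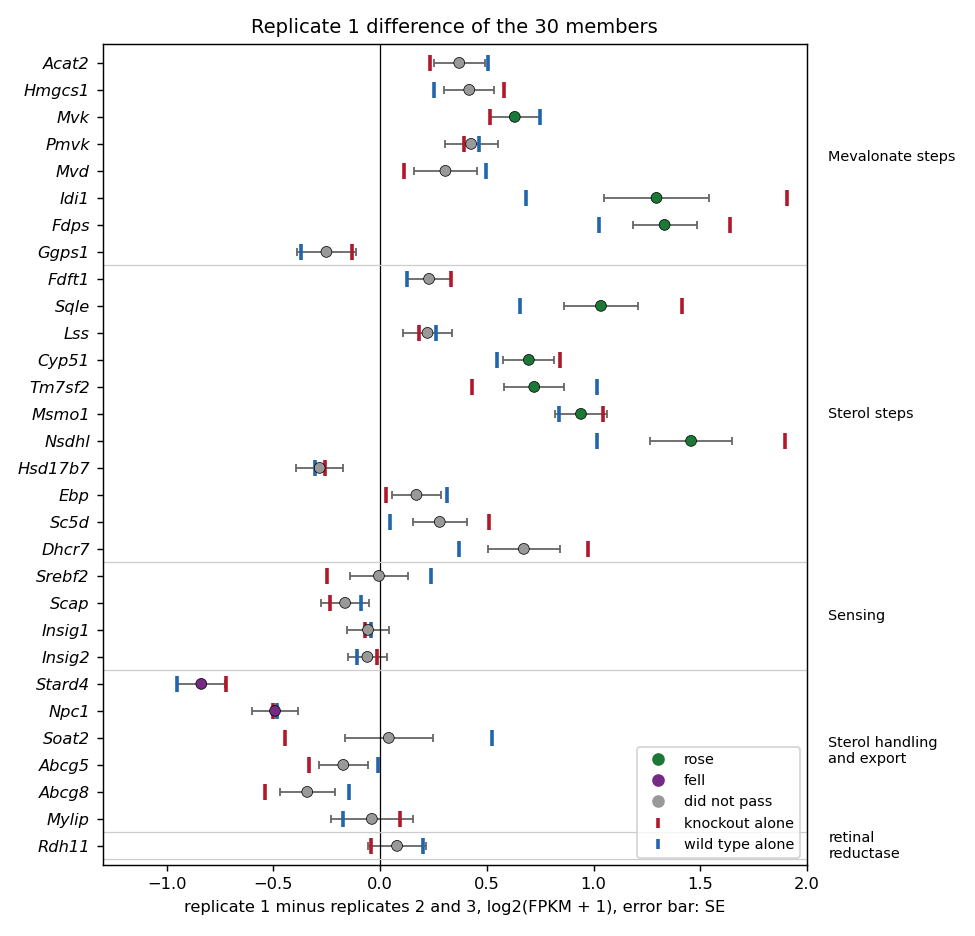
Replicate 1 minus replicates 2 and 3 on log2(FPKM + 1) for the 30 members in pathway order, with genotype in the model; circles are estimates with SE, filled green or purple where the adjusted p is under 0.05, and ticks give each genotype alone. The 8 enzymes that passed lie between 0.63 and 1.46, and the 4 sensing genes lie at or just below 0.

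Promoters of 4 of the 8 enzymes are printed, a choice among those with a window. All 4 genes were higher in replicate 1 of both genotypes. Windows run from 250 bases before to 50 after the RefSeq start (GRCm38.p6), 5′ to 3′ along the gene. Capitals mark CCAAT boxes and a core of the sterol regulatory element, the SREBP site, searched for as ATCACNC on both strands.
Idi1, chr13:8885356-8885655, plus strand: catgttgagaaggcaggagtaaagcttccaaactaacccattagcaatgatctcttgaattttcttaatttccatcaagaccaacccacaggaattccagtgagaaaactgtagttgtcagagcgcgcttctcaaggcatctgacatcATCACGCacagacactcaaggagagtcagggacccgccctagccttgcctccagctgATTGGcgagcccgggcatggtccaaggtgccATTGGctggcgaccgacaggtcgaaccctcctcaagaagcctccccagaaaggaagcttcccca
Nsdhl, chrX:72918271-72918570, plus strand: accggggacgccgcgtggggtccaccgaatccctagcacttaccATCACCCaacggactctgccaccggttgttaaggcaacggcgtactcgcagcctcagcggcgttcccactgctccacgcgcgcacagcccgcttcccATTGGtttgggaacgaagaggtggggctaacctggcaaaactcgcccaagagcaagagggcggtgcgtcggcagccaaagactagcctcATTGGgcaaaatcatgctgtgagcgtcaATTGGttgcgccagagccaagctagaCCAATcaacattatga
Msmo1, chr8:64733529-64733828, minus strand: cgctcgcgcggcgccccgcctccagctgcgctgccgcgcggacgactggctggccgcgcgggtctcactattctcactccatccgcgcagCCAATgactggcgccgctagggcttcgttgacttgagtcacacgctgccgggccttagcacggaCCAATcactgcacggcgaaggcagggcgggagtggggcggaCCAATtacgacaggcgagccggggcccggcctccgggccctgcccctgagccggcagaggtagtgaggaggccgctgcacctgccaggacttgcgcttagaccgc
Cyp51, chr5:4104648-4104947, minus strand: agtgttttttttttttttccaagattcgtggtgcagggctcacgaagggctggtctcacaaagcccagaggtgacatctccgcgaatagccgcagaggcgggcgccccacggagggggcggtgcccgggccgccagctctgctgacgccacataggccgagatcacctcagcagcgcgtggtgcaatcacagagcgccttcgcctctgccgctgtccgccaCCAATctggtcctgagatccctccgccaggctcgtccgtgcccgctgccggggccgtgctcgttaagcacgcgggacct
Idi1 and Nsdhl each hold 1 match of the core, and the 4 windows hold 2, 4, 3 and 1 CCAAT boxes in the order printed. Mvk and Tm7sf2, whose windows are not printed, have a CCAAT box and no match of the core.

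Windows were found for 24 of the 30 members, 6 of them among the 8 enzymes. A CCAAT box was in 22 of these 24 members and in all 6 of the enzymes, against 41.1% of 27025 genes with a window. The core ATCACNC was in 3 of 24, Idi1, Nsdhl and Srebf2, against 10.2% of genes. The GC box GGGCGG was in 19 of 24, against 38.2%. The 27025 genes were not limited to those that passed the filter on low values, as all members did. The shares therefore do not test enrichment. The letters were chosen with these promoters in view, and a match is a description of sequence.

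The replicate 1 difference ran with transcript length over the whole table. Over 9883 tested genes with a known length, Spearman's rho between length and the difference was -0.518, a description across genes that share the same libraries. In the shortest tertile of genes (up to 2030 bases) the median log2 difference was 0.070, in the middle tertile -0.077, and in the longest tertile (from 3530 bases) -0.25. Of the 8 higher enzymes 3 were in the shortest tertile, 4 in the middle tertile and 1, Cyp51 at 3931 bases, in the longest. The members' medians were 0.43 in the shortest tertile (7 members), 0.40 in the middle one (12) and -0.16 in the longest (11, of which 4 had a positive difference). Stard4 and Npc1, at 5097 and 5224 bases, were both in the longest tertile, where 267 genes were lower in replicate 1 and 3 were higher. With each sample's trend on length removed, the same 8 enzymes were higher and Stard4 was lower, against 0.546% and 1.17% of genes. Npc1 then had a difference of -0.23 (limma, adjusted p = 0.29).

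**Figure D4:**
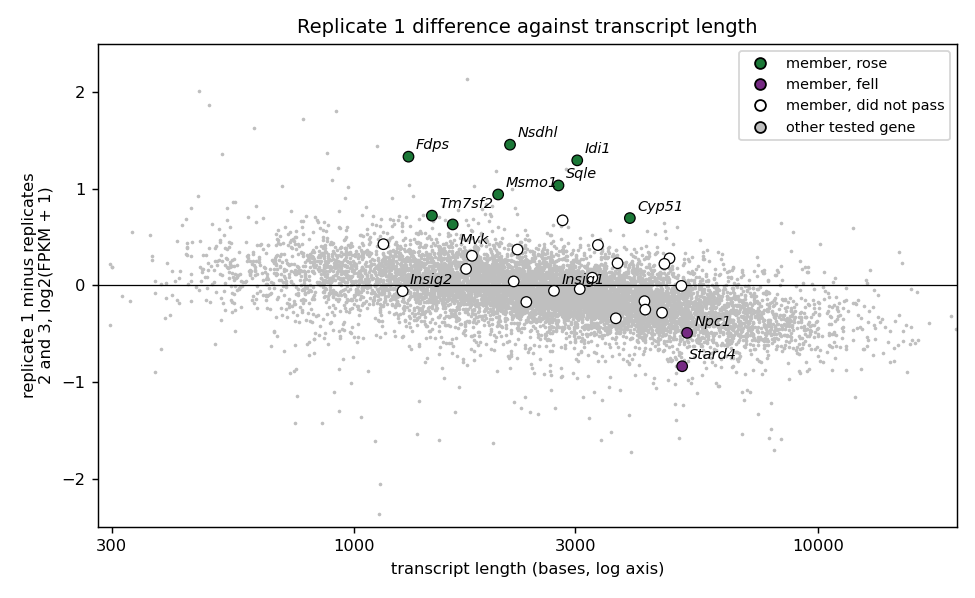
Replicate 1 minus replicates 2 and 3 on log2(FPKM + 1) against transcript length on a log axis; grey points are the tested genes with a length, 10 of which lie outside the axes, and large points are the 30 members. The cloud slopes down from the shortest tertile (median 0.070) to the longest tertile (median -0.25), and the 8 enzymes in green stand above it.

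Markers of blood cells and of intestine also moved with replicate 1, and their part in the enzyme difference was not tested. Summed over 3 neutrophil markers, levels were 17.55 and 20.38 FPKM in the replicate 1 samples and 4.22 to 6.86 in the others, and both tested genes of the list passed. Over 5 red blood cell markers the sums were 393.09 and 535.76 FPKM against 196.22 to 302.87, with 1 of 3 tested genes past the threshold. Over 2 intestine markers they were 82.68 and 74.68 FPKM against 46.57 to 55.89, and the 1 tested gene passed. Hepatocyte marker sums, 48818 and 53244 FPKM in replicate 1, were above the 42039 to 48683 of the others, and none of 7 passed.

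With replicate 1 of both genotypes left out, 8 of 30 members passed between the genotypes, 3 higher and 5 lower in the knockout. Among all tested genes 6.92% rose and 4.95% fell in this fit, which has 2 samples a group. Those that fell were Idi1, Fdps, Nsdhl, Sc5d and Sqle, and those that rose were Insig2, Srebf2 and Tm7sf2. In replicates 2 and 3 the knockout mean of Idi1 was 0.396 of the wild type mean, with a log2 difference of -1.23 (SE 0.12; limma, adjusted p = 5.0e-04). That of Fdps was 0.554 (-0.83, SE 0.097; limma, adjusted p = 0.0011) and that of Nsdhl 0.517 (-0.84, SE 0.13; limma, adjusted p = 0.0043).

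The sterol-branch genes in this comparison went both ways. Sc5d stood at 0.675 of wild type (-0.55, SE 0.088; limma, adjusted p = 0.0054), and Sqle at 0.676, on the edge of the threshold (-0.47, SE 0.13; limma, adjusted p = 0.04997). Tm7sf2 stood at 1.35 times wild type (0.42, SE 0.088; limma, adjusted p = 0.018). Of the 19 enzymes 12 had a negative difference, and 5 fell and 1 rose. With all 6 samples none of these enzymes passed, and the knockout SD was 37.6 FPKM for Fdps (mean 51.4) and 13.3 FPKM for Idi1 (mean 15.1). With replicate 1 or other as a term in the model, Insig2 was again the only member that passed (limma, adjusted p = 0.0020), against 0.893% of genes that rose and 0.853% that fell.

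**Figure D5:**
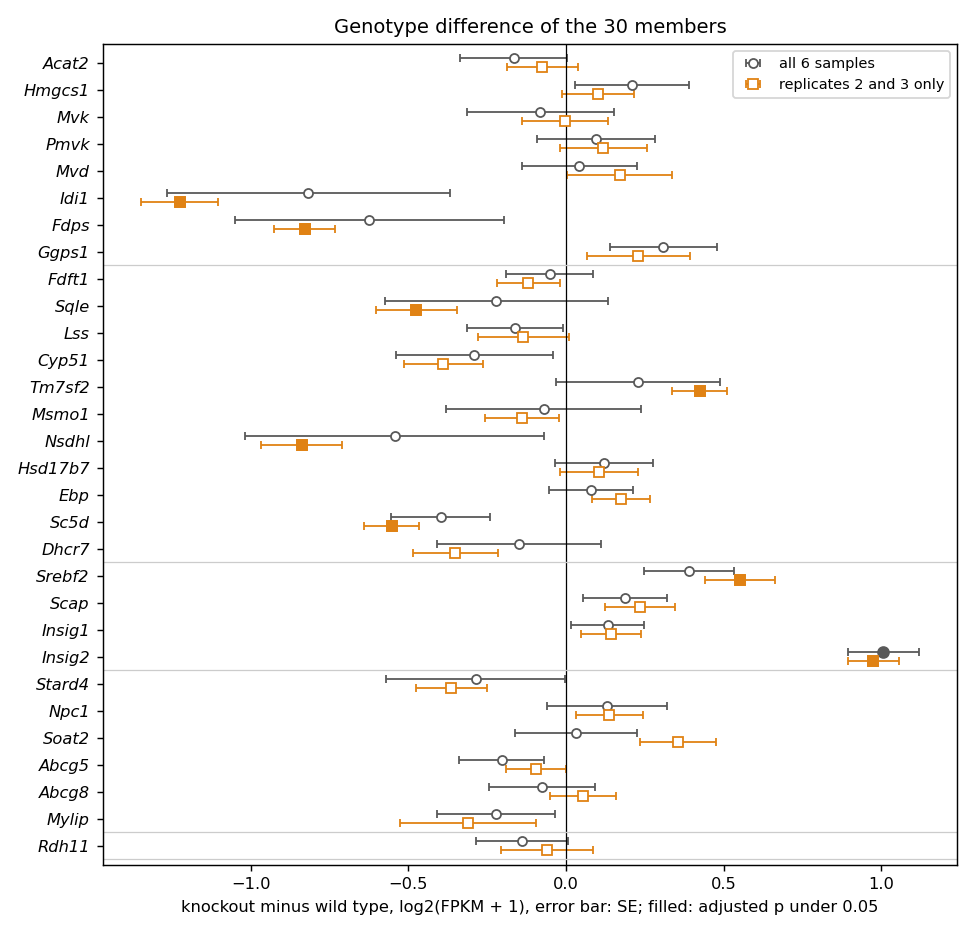
Knockout minus wild type on log2(FPKM + 1) for the 30 members, with SE, from all 6 samples (grey circles) and from replicates 2 and 3 alone (orange squares); filled markers have an adjusted p under 0.05. Insig2 lies at 1.01 and 0.97 in the 2 fits, while Idi1 lies at -0.82 and -1.23 and is filled in the second only.

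None of the 6 genes of sterol handling and export passed between genotypes, with all samples or without replicate 1. Abcg5 and Abcg8 encode the paired subunits of the transporter that secretes cholesterol and plant sterols into bile. Abcg5 held 26.65, 31.65 and 36.21 FPKM in knockout samples and 35.99, 35.10 and 37.44 in wild type samples (log2 difference -0.20, SE 0.14; limma, adjusted p = 0.69). Abcg8 held 28.46, 39.68 and 43.92 FPKM in knockout samples and 36.27, 43.90 and 36.82 in wild type samples (-0.078, SE 0.17; limma, adjusted p = 0.94). In both genes knockout replicate 1 was the lowest of the 6 samples. The replicate 1 difference of Abcg8 over both genotypes was -0.34 and did not pass (limma, adjusted p = 0.16).

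The pair lies head to head on chromosome 17, with starts 110 bases apart, at 84683011 for Abcg5 on the minus strand and 84683121 for Abcg8 on the plus strand. The bases from one start to the other are printed because the 2 genes share them; they hold neither a CCAAT box nor the core ATCACNC.
Abcg5 to Abcg8, chr17:84683011-84683121, plus strand: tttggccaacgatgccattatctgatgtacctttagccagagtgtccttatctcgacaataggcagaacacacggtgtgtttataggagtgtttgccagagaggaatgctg
The annotated genes overlap by 6710 bases, since RefSeq also has an Abcg8 start further upstream, so some reads may belong to either.

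Stard4, a soluble carrier of sterols and a known SREBP-2 target, held 4.79, 8.61 and 8.49 FPKM in knockout samples and 5.35, 10.95 and 11.64 in wild type samples. The replicate 1 samples were the lowest in both genotypes, the reverse of the 8 enzymes (log2 difference of replicate 1 -0.84, SE 0.11; limma, adjusted p = 0.015). The call of Stard4 was lost in 6 of 17 alternatives, among them each of the 4 that leave out a sample numbered 2 or 3. Npc1, which moves cholesterol out of lysosomes, held 21.04, 29.02 and 31.47 FPKM in knockout samples and 19.33, 29.94 and 25.04 in wild type samples (-0.49, SE 0.11; limma, adjusted p = 0.0498). It lost its call in 13 of 17 alternatives, and it overlaps the neighbouring gene Rmc1.

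Soat2, which esterifies cholesterol in liver, held 7.95, 10.37 and 12.02 FPKM in knockout samples and 12.70, 8.53 and 8.51 in wild type samples. Its replicate 1 sample was the lowest of the knockout and the highest of the wild type, and the difference of replicate 1 over both genotypes was 0.041 (limma, adjusted p = 0.93). A test of whether the replicate 1 difference was the same in both genotypes passed upward for 2 members, Idi1 and Nsdhl, and downward for Soat2, against 0.642% and 3.89% of all tested genes. Mylip, a ubiquitin ligase that marks the LDL receptor for breakdown, held 3.26, 3.95 and 2.21 FPKM in knockout samples and 3.39, 4.39 and 3.54 in wild type samples, with no difference past the threshold in either comparison. Rdh11, a retinal reductase, held 5.83, 5.90 and 6.15 FPKM in knockout samples and 7.41, 5.57 and 7.16 in wild type samples, and did not pass.

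Other genes of the same routes came from lists drawn up by role, and their counts stand beside 0.472% of all tested genes that rose and 0.291% that fell between genotypes, and 0.742% that were higher and 3.75% lower in replicate 1. Of 19 tested further SREBP-2 targets and cholesterol genes none passed between genotypes and 1, Lpin1, a phosphatidate phosphatase, was lower in replicate 1 (log2 difference -0.83; limma, adjusted p = 0.018). Lpin1 held 67.99, 125.34 and 145.87 FPKM in knockout samples and 53.97, 91.89 and 81.28 in wild type samples. Aacs, an acetoacetyl-CoA synthetase, passed the test of unlike replicate 1 differences (-1.18; limma, adjusted p = 0.0056), with 11.46 FPKM in knockout replicate 1 and 24.33 to 34.55 in the 5 other samples. Por, the electron donor of Cyp51 and Sqle, chosen after its values were seen as the most abundant of this list, stood at 309 ± 22.1 FPKM in knockout samples and 213 ± 43.2 in wild type samples (SD, n = 3 each; limma, adjusted p = 0.20). Every knockout sample of Por was above every wild type sample, and without replicate 1 of both genotypes the log2 difference was 0.73 (SE 0.088; limma, adjusted p = 0.0013). In that fit 3 genes of the list rose, Por, Lpin1 and Fads2, and 1 fell, Aacs, against 6.92% and 4.95% of all tested genes.

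None of 16 tested genes of SREBP processing and INSIG turnover passed in either comparison; the most abundant were Pgrmc1 (443 ± 16.7 FPKM in knockout samples and 448 ± 29.3 in wild type samples) and Sar1b (187 ± 5.97 and 180 ± 14.8).

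Of 12 tested genes of LXR and its targets none passed between genotypes. The cholesterol exporter Abca1 was lower in replicate 1 (-0.79; limma, adjusted p = 0.015), at 7.29 and 7.58 FPKM against 12.55 to 14.32 in the 4 other samples. With the length trend removed its difference was -0.39 (limma, adjusted p = 0.095). Of 12 genes of sterol traffic and storage none passed between genotypes and 1, the lipoprotein receptor gene Lrp1, was lower in replicate 1 (-0.62; limma, adjusted p = 0.042), with -0.16 after removal of the length trend (limma, adjusted p = 0.53). Without replicate 1 of both genotypes 1 gene rose and 1 fell in each of these 2 lists. They were Apoe and Pltp for LXR, and Scarb1 and Gramd1c for sterol traffic. In that fit, with 2 samples a group, 6.92% of all tested genes rose and 4.95% fell. Gramd1c, chosen after its values were seen, held 10.81, 12.53 and 15.77 FPKM in knockout samples and 16.99, 24.26 and 25.17 in wild type samples. Its log2 difference over all samples was -0.72 (limma, adjusted p = 0.16). With replicate 1 or other as a term, Gramd1c alone of these lists passed (limma, adjusted p = 0.028), against 0.853% of genes that fell. Among 9 lipogenic genes linked to SREBP-1c, Thrsp fell in the knockout, at 385.74, 401.45 and 378.52 FPKM against 917.34, 813.61 and 844.97 (log2 difference -1.14; limma, adjusted p = 0.0014). None of the 9 passed between replicate 1 and the others. Without replicate 1 of both genotypes 5 of the 9 fell (Thrsp, Elovl6, Acaca, Fasn and Acly), against 4.95% of all tested genes.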

How the data were processed

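Liver RNA of 6 mice was sequenced; per the labels' protocols libraries were made with an Illumina TruSeq kit from total RNA. The deposited values are FPKM per the file headers, to 2 decimals. The submitters' processing notes name HISAT and mm10. Quantifier, versions, annotation and strand use were not given in the sources used here. Samples were grouped by title.

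Tests used limma 3.58.1 (lmFit, eBayes with trend; R 4.3.3) on log2(FPKM + 1), which understates changes of low genes, over genes that reached 1 FPKM in 3 or more samples, with Benjamini-Hochberg adjustment over all of them. The fits were tested on simulated data. Replicate 1 was compared with replicates 2 and 3 with genotype as covariate, and another fit added their product. No count test was run, as steps in low values gave whole fragments (within 0.15) for 69.7% to 74% of values only. The depth of each sample was the one with the highest such share. By chance 30% would be whole at a depth fixed beforehand. Transcript lengths came from GENCODE M21 by RefSeq accession, coordinates and promoters from RefSeq GRCm38.p6, the assembly that mm10 names.

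Members, lists and the replicate 1 comparison were chosen with earlier results of these data known. The rule gave sample values to members past the threshold, the 8 with the smallest p in each comparison and the most abundant of each role; others were added after their values were seen. Of each further list it named up to 4 genes past the threshold in the comparisons of genotype or replicate 1, or the 2 most abundant where none passed; of the product, Aacs alone is given. Deviations from the group means correlated between same-numbered samples (r = 0.30, 0.198 and 0.157 over tested genes). The pair of knockout replicate 3 and wild type replicate 2 gave 0.212, and knockout replicate 2 with wild type replicate 3 gave 0.0307. Deviations within a group balance each other, so a shared deviation of replicate 1 alone also raises r among replicates 2 and 3. These values therefore do not show that replicates 2 and 3 were paired by number. The replicate number was used as a block in an alternative. Other alternatives changed the pseudocount, filter, scaling, trend and samples; a covariate for replicate 1 and removal of the length trend were chosen after seeing the data.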

Additional observations from a re-analysis of the deposited data

Results flagged for a closer look

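In 3 members the replicate 1 difference was not the same in the 2 genotypes, by a test of the product of genotype and replicate 1 (limma, adjusted p under 0.05; 0.642% of all tested genes passed upward and 3.89% downward). Each replicate 1 cell of that model holds 1 sample, with 2 residual degrees of freedom. For Idi1 the knockout minus wild type difference of differences was 1.22 on the log2 scale (limma, adjusted p = 0.013): replicate 1 was 4.12 times the other knockout samples and 1.63 times the other wild type samples. For Nsdhl it was 0.88 (0.883; limma, adjusted p = 0.049), with 4.23 times and 2.12 times. For Soat2 it was -0.97 (-0.968; limma, adjusted p = 0.040), with 0.710 times in the knockout and 1.49 times in wild type, opposite directions. Of 8 alternatives, the call of Idi1 was lost in 2 (no trend, no filter on low values), that of Nsdhl in 3 and that of Soat2 in 6. No explanation was tested.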

How the results depend on the processing

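The rise of Insig2 in the knockout kept its direction and its side of the threshold in all 17 alternatives run, with log2 differences of 0.97 to 1.06 (limma, adjusted p = 0.00019 to 0.032). The replicate block left 1 member rising and 0 falling. Leaving out 1 sample gave 1 rising and 0 to 2 falling members (2, Sc5d and Idi1, without knockout replicate 1), and leaving out replicate 1 of both genotypes 3 and 5. In the replicate 1 comparison every member that passed kept its direction in every alternative. Leaving out 1 sample gave 1 to 10 higher members and 0 to 2 lower ones. No filter on low values gave 0 and 0, and no genotype covariate 4 and 1 (Msmo1, Nsdhl, Sqle and Mvk higher, Stard4 lower). There was 1 lower member, Stard4, with quantile normalization, no trend, the wild type samples alone or the length trend removed, and 1, Abcg8, in the knockout samples alone. The test of the product called 0 members without the filter or without a trend, 1 (Idi1) with quantile normalization and 5 (Fdps, Idi1, Nsdhl, Tm7sf2 and Soat2) at 5 FPKM. No filter puts 15960 genes both in the fit and in the adjustment. Causes of these changes were not tested. Over all tested genes, calls numbered 76 between genotypes (29 to 1183 over the alternatives), 448 for replicate 1 (33 to 1170) and 452 for the product (0 to 583). For replicate 1, 16.5% of calls were higher, 9.32% scaled to equal sums, 11.8% scaled without major urinary protein genes, 29.8% with quantile normalization, 31.8% with the length trend removed, 51.6% without knockout replicate 1 and 55.9% in wild type alone; for the product 14.2% were, and 28.9% to 46.1% under the 3 scalings, which moved its median of all genes from -0.054 to as high as 0.13. Depth limits Mvd, Ggps1, Mylip and Mvk most, with about 20, 39, 56 and 66 fragments in their lowest samples.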
